A study of Mus musculus with 20 samples.

Results

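Rfx1 binding in mouse neural progenitor cells (NPCs) was described from 1 chromatin immunoprecipitation sequencing (ChIP-seq) library, set against 1 whole cell extract (WCE) library of embryonic stem (ES) cells as background. A site is a place where 500 bp bins of the 19 autosomes held more Rfx1 reads than that background. Of 4810844 bins, 19177 passed, and bins lying close together were joined, which gave 13326 sites. The passing bins are 0.399% of all bins.

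Rfx1 belongs to the regulatory factor X family of transcription factors, which bind DNA through a winged-helix domain, often as dimers, at a palindromic motif called the X-box. The family is best known for genes of cilia and, through other members, for MHC class II genes, and Rfx1 has been described both as an activator and as a repressor. H3K27ac, acetylation of lysine 27 of histone H3, marks active promoters and enhancers, and nucleosomes are commonly displaced where a factor sits on the DNA.

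The series held 20 mouse libraries, of which 5 enter the main comparisons. The NPC Rfx1 and NPC H3K27ac libraries came from progenitors of 129JAE-C57/B6 origin, obtained from embryoid bodies plated at day 4, selected for 5 to 7 days in ITSFn medium and then kept in N3 medium with FGF and EGF. The 2 ES H3K27ac libraries and the ES WCE library came from V6.5 ES cells, a C57BL/6-129 line, taken off their fibroblast feeders for 1 passage for H3K27ac and 2 passages for WCE. No NPC background library was used here, and the identity of the NPCs was not checked against marker genes because no annotation of the files' genome build was at hand.

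The Rfx1 library was shallow and repetitive. It had 2560596 aligned reads, and 72.5% of its autosomal reads repeated a position and strand already seen, which left 694055 distinct reads. NPC H3K27ac had 6.81 M distinct reads with 19.1% repeated, the ES H3K27ac libraries 8.77 and 8.40 M, and ES WCE 6.95 M. Levels are given as RPM, the distinct reads per 1 M distinct autosomal reads of a library, and in the Rfx1 library 1 read is 1.44 RPM, against a genome mean of 0.144 reads per bin. Intervals are 95% intervals, by Wilson's method for shares and from order statistics for medians. They are taken over sites as if these were independent, and do not cover the spread between libraries.

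Rfx1 sites fell into many weak ones and a small set of very strong ones. The strength of a site is the Rfx1 level of its highest 500 bp bin, and 5 classes were formed from it. The 5098 sites under 10 RPM made up 38.3% of all sites, and the 5403 sites of 10 to 20 RPM made up 40.5%. A further 1328 sites (9.97%) had 20 to 40 RPM and 581 (4.36%) had 40 to 80 RPM. The strongest class, 80 RPM and above, held 916 sites or 6.87% (6.46 to 7.32), of which 489 reached 160 RPM. These 916 sites held 21.5% of all distinct Rfx1 reads, and all sites together held 44.4%.

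The number of sites did not fall off evenly with strength. In bands that double in width, there were 6517 sites with 4 to 7 reads in the highest bin, 4443 with 8 to 15, and 981 with 16 to 31. From there the decline was slow, with 551 sites at 32 to 63 reads, 426 at 64 to 127 and 329 at 128 to 255. The highest band, 256 to 511 reads, held 79 sites, and the strongest site had 447 reads. Strong sites were also broader, since 29.5% of the sites of 80 RPM and above consisted of a single bin, against 88.1% of those under 10 RPM. Strength classes and these widths come from the same Rfx1 reads that defined the sites, so they are a description only.

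**Figure D1:**
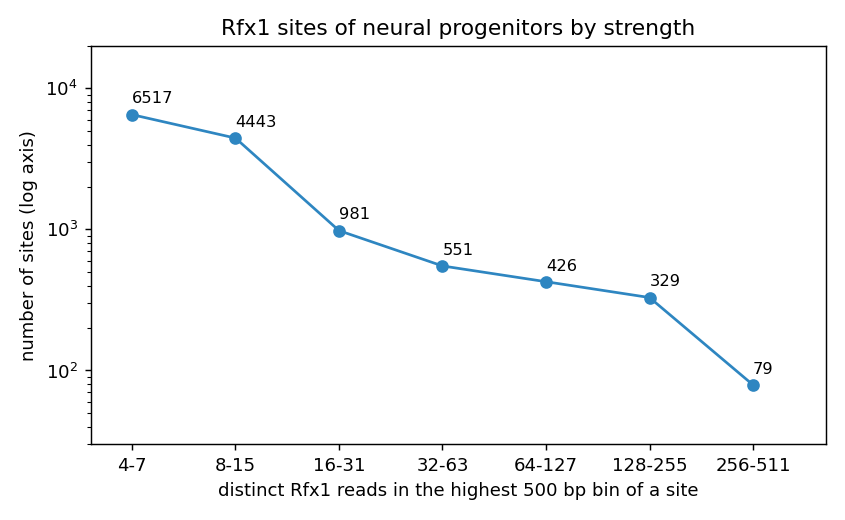
Number of Rfx1 sites (log axis) in bands of distinct Rfx1 reads in the highest 500 bp bin of a site, in 1 NPC library. Counts drop steeply up to 16 to 31 reads (981 sites) and then slowly to 329 sites at 128 to 255 reads.

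At the weak end the call is set by single reads. The lowest called bins had 4 reads, and 1460 of 6710 bins with 4 reads passed, as did 3966 of 4086 bins with 5 reads and none of 12621 with 3. The adjusted p was 0.00981 in the last bin inside the limit and 0.0109 in the first bin outside it. The 3-fold minimum removed nothing, since the lowest fold among called bins was 7.40.

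Reads at the sites came from both strands in nearly equal number, with 50.1% on the forward strand at all sites and 50.03% at sites of 80 RPM and above. The forward and reverse reads peaked 110 bp apart under 10 RPM, 50 bp at 10 to 20 RPM, 130 bp at 20 to 40 RPM, and 170 bp in both classes above. At the sites of at least 160 RPM the distance was 120 bp, and over all sites 100 bp. Only 33 of 13326 sites had reads on 1 strand alone, 27 of them under 10 RPM. The mean number of reads per distinct position was 4.35 at sites of 80 RPM and above, 3.18 at sites under 10 RPM and 3.63 over the whole library.

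The background at the sites was raised a little. ES WCE had a median of 1.29 RPM within 1 kb of site centres and 1.44 RPM at sites of 80 RPM and above, against 0.719 RPM over all 2 kb tiles of the autosomes. WCE lay above 2 times its genome mean at 30.3% of sites and at 9.16% of tiles. Without those sites, an alternative added after seeing the data, 9289 sites were left.

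Rfx1 reads were also more frequent in acetylated chromatin outside the sites. Over 60671 bins inside NPC H3K27ac regions but in no site, the Rfx1 library averaged 1.00 RPM per bin, against 0.105 RPM in the bins outside both, a ratio of 9.54. ES WCE gave a ratio of 1.85 over the same bins, liver WCE 2.09 and ES H3 1.29. How far this wider excess enters the weak sites, whose level begins at 5.76 RPM, was not tested.

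The number of sites depended on repeated reads. With every repeated read of the Rfx1 library kept, 90937 sites passed instead of 13326. The test compares these libraries only, since 1 Rfx1 and 1 WCE library give no measure of the spread between replicates.

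Rfx1 sites lay closer together than positions taken evenly along the autosomes. The median distance from a site to the nearest other site was 28.8 kb (28.0 to 29.7), and 3201 of 13326 sites, 24.0% (23.3 to 24.8), had another within 10 kb. Of all 500 bp bins, 9.63% lay within 10 kb of a site. Within 100 kb the shares were 82.3% of sites and 45.3% of bins. Because bins up to 1000 bp apart were joined, no neighbours closer than 1577 bp exist.

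The strength of a site made little difference to how near its closest neighbour of any strength was. The median distance was 26.5 kb under 10 RPM, 31.5 kb at 10 to 20 RPM and 30.0 kb at 20 to 40 RPM. It was 26.5 kb at 40 to 80 RPM (22.9 to 29.4) and 27.5 kb (24.3 to 31.8) at 80 RPM and above. The share with another site within 10 kb was 26.3% (25.2 to 27.6) in the weakest class and 20.3% (17.8 to 23.0) in the strongest. These intervals treat sites as independent, although being near is shared by both sites of a pair, so they cannot decide whether the classes differ. The medians lie within a few kb of each other.

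Distances within a class were longer, since each class is smaller than the whole. From a site of 80 RPM and above to the nearest other site of that class the median distance was 301 kb. Of 916 such sites, 21 (2.29%) had another within 10 kb, against 0.752% of all bins that lay as near to one. Within the class of 20 to 40 RPM the median was 255 kb with 3.01% within 10 kb, and within that of 40 to 80 RPM it was 674 kb with 1.03%. Joined into runs with gaps of at most 10 kb, the strongest class gave 895 lone sites, 9 runs of 2 and 1 run of 3. All sites gave 10125 lone sites among 11464 runs, with 997 runs of 2, 236 of 3 and 106 of 4 or more, the longest holding 15 sites.

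**Figure D2:**
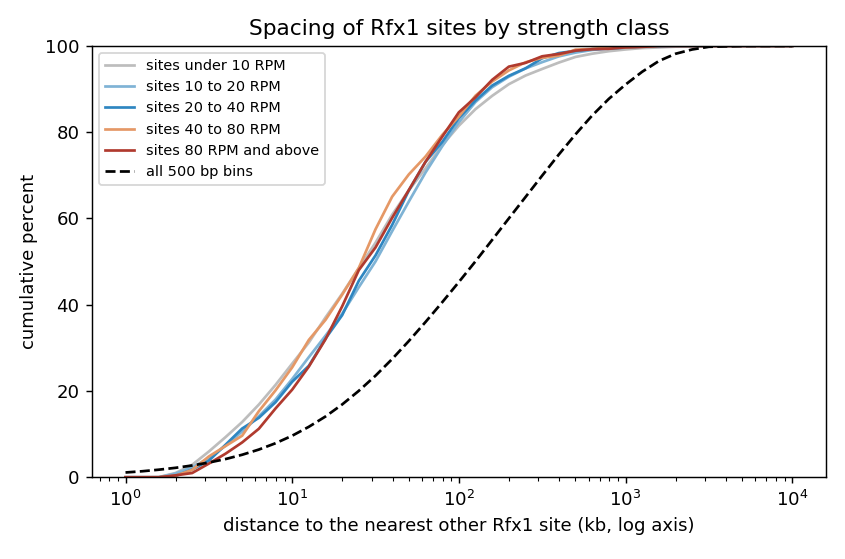
Cumulative percent of Rfx1 sites by distance to the nearest other Rfx1 site (kb, log axis) in each strength class, with all 500 bp bins as the dashed line. The 5 classes run close together and left of the bins, with 82.3% of all sites and 45.3% of bins within 100 kb.

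Among the sites of at least 20 RPM, the closest neighbours were 2070 bp apart at chr1:135877501-135878000 and chr1:135879501-135880000, with 27.4 and 36.0 RPM of Rfx1. The next were 2113 bp apart at chr13:55337001-55337500 and chr13:55339001-55340000, with 27.4 and 21.6 RPM. The third lay 2450 bp apart at chr7:29023501-29024500 and chr7:29026501-29027000, with 79.2 and 38.9 RPM. None of these 6 sites reached the strongest class. Coordinates are those of the deposited positions, which lie within the chromosome lengths of the mm8 assembly.

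Chromosomes differed in site density. Chromosome 11 had 9.95 sites per Mb and chromosome 19 had 7.89, while chromosome 14 had 3.37. Sites of 80 RPM and above followed a similar order at the ends, with 0.615 per Mb on chromosome 11 and 0.157 on chromosome 14.

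H3K27ac of NPCs was high around most Rfx1 sites, and the weakest class stood apart from the others. Within 1 kb of site centres the median NPC H3K27ac level was 22.2 RPM over all 13326 sites, against 0.147 RPM over all 2 kb tiles. Sites under 10 RPM of Rfx1 had a median of 3.08 RPM. The classes above had 34.8, 41.6, 30.5 and 37.4 RPM, in order of strength. The medians of the 4 upper classes show no steady increase with Rfx1 level.

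A rank correlation describes the same pattern. Across all 13326 sites, Rfx1 and NPC H3K27ac levels had a Spearman coefficient of 0.438, and across the 2825 sites of at least 20 RPM it was -0.055. The points come from 2 libraries of 1 cell population and sites are not independent replicates, so no p is given.

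Most Rfx1 sites overlapped an H3K27ac region called in NPCs. The share was 71.5% (70.7 to 72.2) of all sites, where 1.57% of all bins lay inside such regions. It was 49.3% under 10 RPM, 81.8% at 10 to 20, 89.5% at 20 to 40, 89.0% at 40 to 80, and 96.4% (94.98 to 97.4) at 80 RPM and above. Of the sites under 10 RPM, those inside a region had a median of 26.9 RPM of NPC H3K27ac and those outside 1.03 RPM, while both groups had a median Rfx1 level of 7.20 RPM. Seen from the other mark, 9334 of 26940 NPC H3K27ac regions (34.6%) held a site, and 881 (3.27%) held one of 80 RPM and above.

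Rfx1 sites lay largely where H3K4me3, a mark of promoters, was found in ES cells or liver. Of all sites 72.4% overlapped a region called in either, against 1.77% of bins inside such regions, and in the strongest class it was 843 of 916 sites, or 92.0%. NPC H3K4me3 was not analysed here, so promoters marked only in NPCs count among the rest. The ES H3K4me3 library was repetitive too, with 70.0% of its autosomal reads repeated and 2.32 M distinct reads left.

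A small group of strong sites had no H3K27ac call in NPCs. Of the 916 sites of 80 RPM and above, 33 lay in no NPC H3K27ac region. Their median Rfx1 level was 122 RPM and reached 400.5 RPM, while NPC H3K27ac ranged from 0.294 to 12.3 RPM with a median of 1.91. ES H3K27ac had medians of 1.83 and 2.02 RPM there, and WCE 1.44 RPM. Both ES libraries had an H3K27ac call at 10 of the 33 and neither had one at 21, and 12 of the 33 overlapped H3K4me3. A missing call is not absence of the mark, since strong sites with a call went down to 1.47 RPM.

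The same sites were already acetylated in ES cells, the cell state from which NPCs are derived. Over all sites the median within 1 kb was 22.2 RPM in NPCs, and 6.62 and 10.0 RPM in the ES libraries, with a mean of 8.31 ± 2.39 (SD, n = 2). At sites of 80 RPM and above it was 37.4 RPM in NPCs and 10.5 and 15.4 RPM in the ES libraries. Under 10 RPM of Rfx1 it was 3.08 RPM in NPCs and 3.31 and 4.88 RPM in the ES libraries, so the NPC median lay below both ES medians in the weakest class alone. With every repeated Rfx1 read kept, the order over all sites turned, with 0.440 RPM in NPCs and 0.684 and 0.595 RPM in the ES libraries. Of those 90937 sites, 84658 were under 10 RPM, with a ratio of NPC to ES medians of 0.842, and the 4 classes above had ratios of 2.80 to 2.95.

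**Figure D3:**
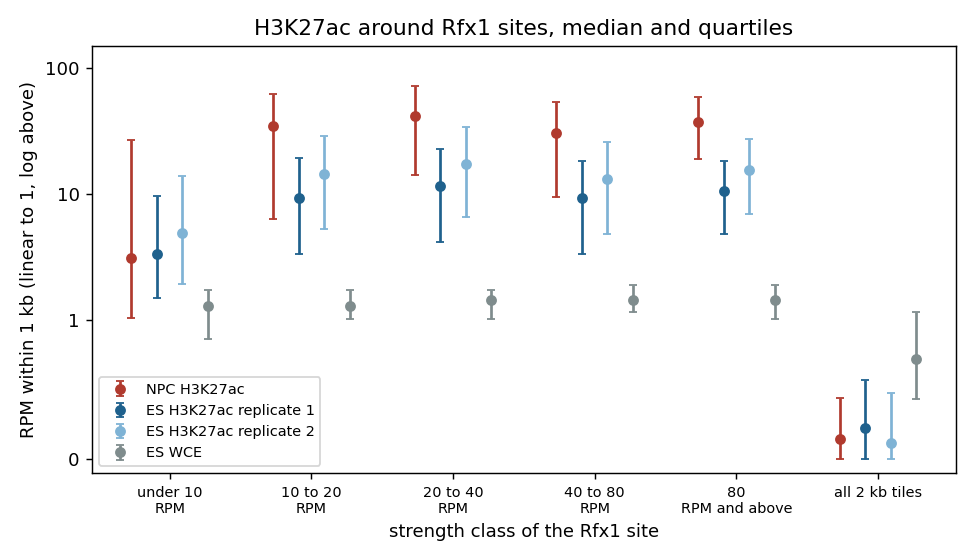
Median (points) and quartiles (bars) of RPM within 1 kb of Rfx1 site centres by strength class, and over all 2 kb tiles, for NPC H3K27ac, 2 ES H3K27ac libraries and ES WCE; the axis is linear to 1 and logarithmic above. NPC lies above both ES medians in the 4 classes from 10 RPM up (37.4 against 10.5 and 15.4 RPM in the strongest) and just below them under 10 RPM.

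Called regions gave a second measure. Both ES libraries had an H3K27ac call at 69.1% of sites and at 86.4% of those of 80 RPM and above, where 3.73% and 3.57% of bins lay in the regions of ES replicates 1 and 2. In the strongest class 781 of 916 sites (85.3%) were acetylated in NPCs and in both ES libraries. In that class 46 (5.02%) were called in NPCs and in neither ES library, and 10 (1.09%) in both ES libraries but not in NPCs. Among sites under 10 RPM, 5.57% were called in NPCs alone and 14.2% in ES cells alone. NPC regions covered 1.57% of bins, fewer than those of either ES library. The shares of all bins called in NPCs alone or in ES cells alone are not given here. These counts therefore cannot weigh gains against losses of the mark.

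The 46 strong sites with a call in NPCs alone were less acetylated than the rest of their class. Their median NPC H3K27ac was 9.47 RPM (1.47 to 45.4), against 38.5 RPM over all 883 strong sites with a call in NPCs. ES medians there were 1.37 and 1.84 RPM, near the WCE median of 1.37 RPM. Of the 46, 22 overlapped H3K4me3.

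A test of NPC against ES H3K27ac was run over 205987 windows of 2 kb, which covered the sites together with the rest of the autosomes. limma called 21.1% of all windows higher in NPCs and 21.3% lower, at a Benjamini-Hochberg adjusted p of 0.05. Of 13326 site windows, 12746 had enough reads to be tested, and 7168 of these (56.2%) were called higher and 678 (5.32%) lower. The median log2 difference, NPC minus ES, was 2.28 over site windows and -0.11 over all windows tested.

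Calls became more frequent and more uniform with Rfx1 strength. Among tested sites under 10 RPM, 46.9% were higher and 9.43% lower in NPCs, with a median log2 difference of 1.41 (1.30 to 1.51). At 80 RPM and above, 669 of 913 tested sites (73.3%) were higher and 4 (0.438%) lower, with a median of 2.63 (2.56 to 2.72), and 898 of the 913 differences were positive. The classes between gave medians of 2.45, 2.58 and 2.56. In the weakest class the medians in RPM ran the other way, with a ratio of NPC to ES medians of 0.753, while the ratio of means was 1.93. NPC lay below both ES libraries at 40.7% of the sites of this class and above both at 48.2%. Calls did not simply follow RPM. The main scaling used factors of 0.567 for NPC and 1.42 and 1.24 for the ES libraries, so equal RPM gave a positive difference. The strong site centred at chr2:152097749 was called higher at 3.82 RPM in NPCs and a mean of 4.46 RPM in ES cells. That at chr2:164548543 was not called, at 7.19 against 57.1 RPM. Among the 10 strongest sites the SE was largest, 2.21 and 1.69, at the second and seventh, which had the most ES H3K27ac.

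The size of the difference depended on scaling. With library size as the only scaling the median over all windows moved to -1.08, and 4910 sites were higher and 1930 lower, so that 71.8% of site calls were higher against 91.4% in the main scaling. Over all windows that scaling called 10.3% higher and 41.6% lower, and 19.9% of all calls were higher. Under 10 RPM it called 1362 sites higher and 1206 lower, with a median log2 difference of 0.26. The median over all site windows was then 1.07, and 479 strong sites were higher and 19 lower. The test rests on 1 NPC library assumed to vary like an ES library and on 1 residual degree of freedom. With windows of at least 1 read kept, limma called 0 sites in either direction at the adjusted threshold, with 2159 higher and 696 lower at an unadjusted p under 0.05.

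Without any model, NPC H3K27ac lay above both ES libraries at 67.0% of sites, against 30.4% of all 2 kb tiles. The share was 48.2% under 10 RPM and 89.6% at 80 RPM and above.

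The 10 strongest sites had 519 to 644 RPM of Rfx1, from 360 to 447 reads. All 10 overlapped H3K4me3, and limma called 8 of them higher for H3K27ac in NPCs. The strongest, at chr16:90823001-90824500, had 644 RPM of Rfx1 and 50.8 RPM of H3K27ac in NPCs, against 10.95 and 21.3 RPM in the ES libraries (log2 difference 2.94, SE 0.82, limma adjusted p = 0.00131). NPC acetylation there lay above both ES libraries.

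The second, at chr17:39451001-39457000, differed from the other 9. It had 598 RPM of Rfx1 but also 75.5 RPM of WCE, and its fold over the expected background was 36.5, where the other 9 lay at 1209 or above. Its H3K27ac level was 65.9 RPM in NPCs, against 82.1 and 130.3 RPM in the ES libraries (limma adjusted p = 0.862). The log2 difference was 0.58 (SE 2.21) in the main scaling and -0.65 with library size alone, so its direction turned with the scaling. It was the only one of the 10 at which NPC H3K27ac did not exceed both ES libraries, and its background library was high as well.

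The third, at chr2:30480001-30481000, had 569 RPM of Rfx1 and the highest NPC H3K27ac of the 10, 107 RPM, against 22.2 and 32.6 RPM in the ES libraries (log2 difference 3.21, limma adjusted p = 0.028). The fourth, at chr1:88265501-88266000, showed the largest log2 difference of the 10, 3.82 (SE 0.80, limma adjusted p = 1.25e-05), with 73.8 RPM in NPCs, against 10.6 and 13.6 RPM in the ES libraries. The seventh, at chr8:73627001-73630000, was not called, with 98.8 RPM in NPCs against 41.6 and 61.3 RPM in the ES libraries (limma adjusted p = 0.308). In these 3 sites the NPC value exceeded both ES values.

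The 3 largest gains of acetylation in NPCs, picked only from sites of at least 20 RPM, were at sites of 20 to 40 RPM. Among sites of at least 20 RPM, the largest positive difference was at chr12:68139501-68141500, with 21.6 RPM of Rfx1 and 168 RPM of H3K27ac in NPCs, against 2.85 and 3.21 RPM in the ES libraries (log2 difference 6.88, SE 0.58, limma adjusted p = 1.23e-30). It stood 1946804 bp from the nearest other site. The next, chr4:22585501-22586500, had 30.3 RPM of Rfx1 and 38.3 RPM of H3K27ac in NPCs, against 0.456 and 0.714 RPM in ES cells (log2 difference 6.68, limma adjusted p = 9.01e-57). The third, chr17:8363001-8363500, had 38.9 RPM of Rfx1 and 54.9 RPM of H3K27ac in NPCs, against 1.03 and 1.19 RPM in ES cells (log2 difference 6.52, limma adjusted p = 1.22e-50). None of these 3 lay in a region with H3K4me3 in ES cells or liver.

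Among the 2803 tested sites of at least 20 RPM, 33 were called lower in NPCs. The largest difference was at chr4:140563501-140564000, with 25.9 RPM of Rfx1, where NPC H3K27ac was 0.734 RPM, against 48.3 and 59.7 RPM in the ES libraries (log2 difference -4.74, SE 0.61, limma adjusted p = 1.11e-13). At chr11:117705001-117705500, with 27.4 RPM of Rfx1, it was 2.94 RPM in NPCs, against 54.1 and 83.7 RPM in ES cells (log2 difference -3.23, limma adjusted p = 0.000521). The third, chr7:80060501-80061000, belonged to the strongest class with 122 RPM of Rfx1, and had 2.79 RPM in NPCs, against 51.9 and 62.2 RPM in ES cells (log2 difference -3.06, limma adjusted p = 0.00036). At these 3 Rfx1 sites NPC acetylation was low, near the WCE level of 1.73 to 2.30 RPM, while it was high in both ES libraries.

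The shape of acetylation around a site changed with Rfx1 strength. Summed over all sites, NPC H3K27ac within 250 bp of the centre was 5.84 times that at 500 to 1500 bp on either side, and in the strongest class it was 4.76 times, so the mark was a peak centred on the sites. Within that peak the highest point lay 25 bp from the centre in the classes under 40 RPM, but 225 bp from it in the classes of 40 to 80 RPM and of 80 RPM and above.

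The centre was lower relative to its shoulders in each stronger class, and a dip was present from 40 RPM up. The ratio of the level within 50 bp of the centre to that at 175 to 275 bp, a measure chosen after seeing the profiles, was 1.45 under 10 RPM, 1.21 at 10 to 20 RPM and 1.03 at 20 to 40 RPM in NPCs. It was 0.734 at 40 to 80 RPM and 0.527 at 80 RPM and above, and 0.426 at the 489 sites of at least 160 RPM. At the strongest class this compares 22.0 RPM per kb at the centre with 41.8 at the shoulders, from 13754 and 52214 reads. Site centres were placed from few reads in the weak classes. The highest bin held a median of 5 Rfx1 reads under 10 RPM and 9 at 10 to 20 RPM, against 116 at 80 RPM and above. Less exact centres could blur a dip, and their part in the trend with strength was not tested.

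The dip was present at the same sites in ES cells. At 80 RPM and above the ratio was 0.527 in NPCs, and 0.521 and 0.596 in the ES libraries. Under 10 RPM it was 1.45 in NPCs, and 1.16 and 1.39 in the ES libraries. The ratio for total H3 of ES cells was below 1 in all 5 classes, at 0.923 under 10 RPM and 0.417 at 80 RPM and above, where the second value rests on 146 reads at the centre. Liver H3 gave 1.15 and 0.605 in the same classes. H3 of mouse embryonic fibroblasts gave 1.34 and 0.787, with 0.745 at 40 to 80 RPM. WCE showed no such change, with 0.954 and 0.973 in ES cells and 1.37 and 1.27 in liver.

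**Figure D4:**
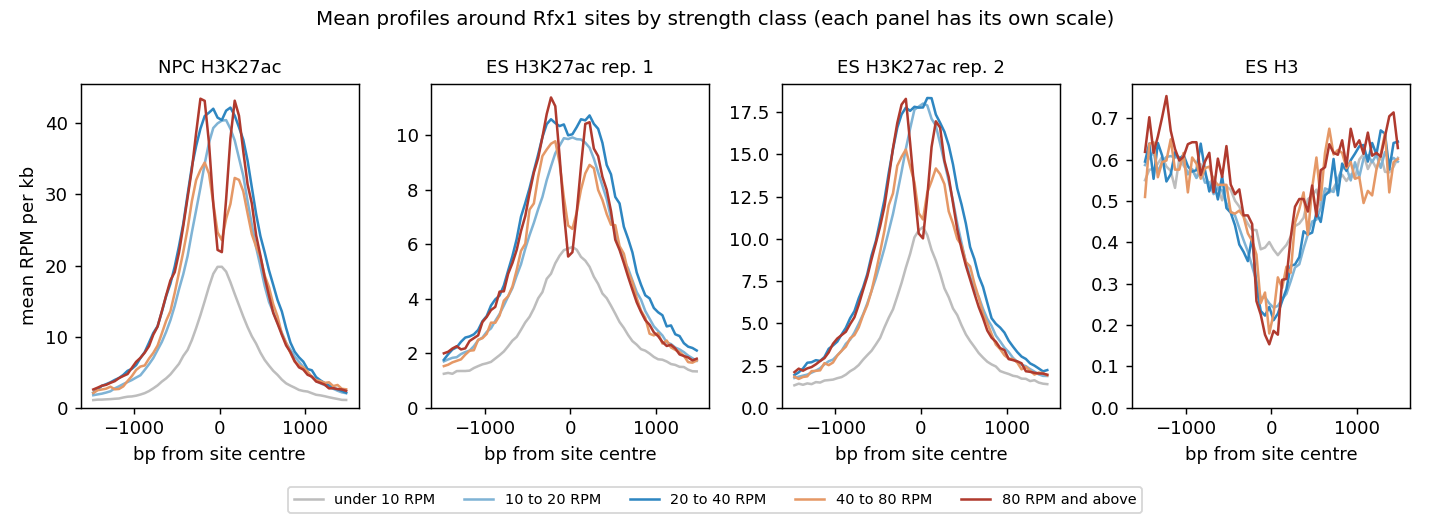
Mean RPM per kb by distance from the centre of Rfx1 sites (bp) in the 5 strength classes, for NPC H3K27ac, 2 ES H3K27ac libraries and ES H3, each panel on its own scale. From 40 RPM up the 3 H3K27ac libraries dip at the centre between shoulders about 225 bp away, and ES H3 is lowest at the centre.

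Acetylation was mostly heavier on 1 side of a strong site. With reads from 250 to 1500 bp on either side counted, 829 sites of 80 RPM and above had at least 20 NPC reads, and at 572 of them (69.0%) one side had at least 3 times the reads of the other. The share was 59.2% among sites under 10 RPM and 60.4% over all sites, so it is not particular to strong sites. Acetylated windows without a site were not measured in this way. The median site of the strongest class had 84.5% of its flanking reads on the heavier side. That side was picked from the same reads, so this value lies above an even split by construction. Of the strong sites in H3K4me3 regions 70.7% of 787 were lopsided, and of those outside 38.1% of 42, a difference that was not tested.

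The heavier side was the same in NPCs and ES cells at most strong sites. Among the lopsided strong sites that could be compared, the side matched at 464 of 503 (92.3%) in ES replicate 1 and at 512 of 524 (97.7%) in ES replicate 2. Outside H3K4me3 regions few could be compared, and the side matched at 3 of 5 and 4 of 7. Over lopsided sites of all classes the side matched at 90.8% and 95.6% in the 2 ES libraries. Under 10 RPM it matched at 88.3% and 93.8%, so the match is not particular to strong sites. To show the asymmetry without using NPC reads for the choice, all 916 strong sites were turned so that the side heavier in ES replicate 1 lay to the right. NPC H3K27ac then had 17.9 RPM per kb on that side and 5.45 on the other, a ratio of 3.28. ES replicate 2 gave a ratio of 3.04, ES H3K4me3 3.20 and WCE 1.11.

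**Figure D5:**
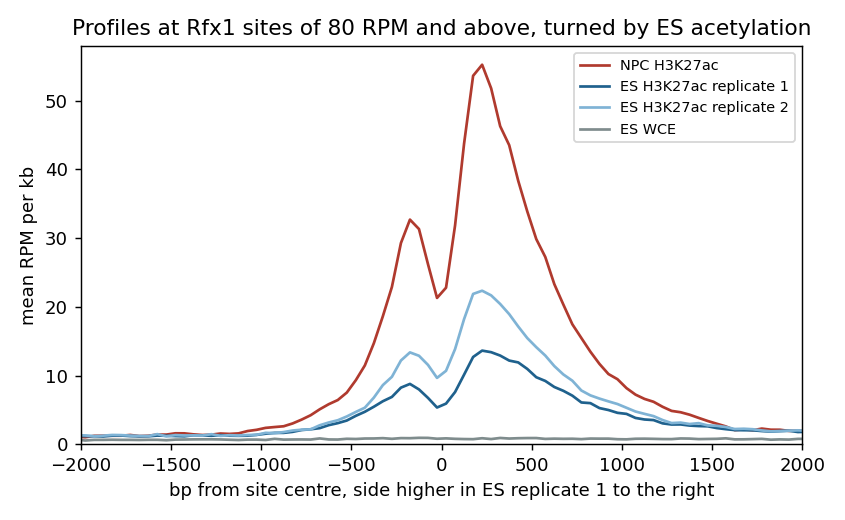
Mean RPM per kb by distance from the centre (bp) of the 916 Rfx1 sites of 80 RPM and above, each turned so that the side with more reads in ES H3K27ac replicate 1 lies to the right, for NPC H3K27ac, both ES H3K27ac libraries and ES WCE. NPC H3K27ac averages 17.9 RPM per kb on the right and 5.45 on the left, with a dip at the centre, and WCE is flat.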

How the data were processed

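Each deposited file lists the aligned reads of 1 library as signed positions under chromosome names, per the file headers and with the reverse strand shown by a minus sign. These values are of no normalised unit, and for the authors' aligner and genome build nothing is given in the sources used here. Per the labels' protocols, chromatin was sonicated to about 500 bp, amplified with 18 PCR cycles and cut from a gel at 200 to 350 bp.

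Reads were counted once per position and strand, moved 100 bp toward the fragment centre, and counted in 500 bp bins. A bin passed by a Poisson test whose expectation was the genome mean or, where larger, the ES WCE count over about 5000 bp scaled to the Rfx1 library; it also had to be 3-fold over it, with p adjusted by Benjamini-Hochberg at 0.01. Passing bins up to 1000 bp apart were joined. The site centre is the 200 bp window with most reads in the highest bin. H3K27ac regions were called likewise against ES H3, as were those of ES H3K4me3, and liver H3K4me3 against liver H3. NPC and ES H3K27ac were compared with limma-trend (limma 3.58.1, R 4.3.3) on log2 CPM (prior count 2, scaled by TMM, the trimmed mean of M-values, in a routine written in Python 3.11.15), over windows with at least 10 reads in 1 library. The labels do not say that the ES libraries came from separate cultures, so p-values reflect only how these libraries vary, and that variation may be technical.

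The sites named are the 10 with the highest Rfx1 level and, among those of at least 20 RPM, the 3 largest gains and 3 largest losses of H3K27ac past the limma threshold and the 3 closest neighbours. Members, classes and measures were chosen with earlier results of these data known. Alternatives covered repeated reads, background, thresholds, joining, read shift, windows, scaling, filter, prior count and leaving out each ES library. The procedures were tested on simulated data. For H3K27ac all 3 libraries were drawn with 1 assumed spread, and changes were placed in windows averaging at least 20 reads. This simulation cannot tell how the lone NPC library varies. Its spread was set beforehand and not fitted to the libraries, so the shares called in it do not give the detection rate in the real windows. Among the limma calls of the simulation the unchanged windows outnumbered the changed ones, since nearly all simulated windows were unchanged. At expected single-bin counts 20, 40 and 80 times the background, 17.0, 60.5 and 98.5% of 200 simulated Rfx1 bins passed, over 4810844 bins, and 0 of the others did. For H3K27ac over 180500 windows, limma called 100 of 100 windows changed 8-fold, 48 of 50 changed 4-fold and 1.58% of unchanged ones. Gene names, motifs and sequences were not used here, since no genome or annotation of the files' build was at hand.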

Additional observations from a re-analysis of the deposited data

Results flagged for a closer look

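Several libraries that enter none of the comparisons above had more reads within 1 kb of Rfx1 sites of 80 RPM and above than the WCE libraries, whose medians there were 1.44 RPM in ES cells and 1.78 RPM in liver. These are levels at 916 sites in 1 library each, without a test, and were picked out because they exceed that background.

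H3K4me1, a mark of enhancers and of promoter edges, was only modestly above it. The medians were 2.81, 3.62 and 2.74 RPM in 3 ES libraries. Per the labels these came from different ES cells, so they are not replicates of the same line. The library with 3.62 RPM came from cells with a doxycycline-inducible transgene, and that with 2.74 RPM from inbred cells. The medians were 4.27 RPM in mouse embryonic fibroblasts, 3.92 RPM in induced pluripotent stem cells and 5.60 RPM in liver. The acetyltransferase p300 had medians of 4.89 and 3.76 RPM in the ES libraries. Liver H3K27ac had the highest of these medians, 11.3 RPM, which lies between the 10.5 and 15.4 RPM of the ES H3K27ac libraries at the same sites.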

How the results depend on the processing

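No paired analysis was possible because NPCs have 1 library for each target and replicate numbers do not tie NPC and ES libraries together. Of 94 alternative values, 54 stayed within the spread or within 1.5 times of the main value, 39 moved further and 1 turned the other way. The one that turned was the ratio of NPC to ES median H3K27ac over all sites, added after seeing the data and 2.67 in the main setting, which was 0.688 with repeated Rfx1 reads kept; against the genome mean alone it was 1.83. Keeping repeated Rfx1 reads gave 90937 sites, 56.4% of them with another within 10 kb, median NPC and ES H3K27ac of 0.440 and 0.640 RPM, a centre to flank ratio of 4.94 and a centre to shoulder ratio at strong sites of 0.513. The share with a neighbour within 10 kb, 24.0% in the main setting, was 26.2% against ES H3, 31.4% against the genome mean alone, 16.5% at an adjusted p of 0.0001, 30.6% with only adjacent bins joined, and 16.2% without sites of high WCE; within 100 kb it was 82.3%. Against ES H3, against the genome mean, at the stricter p and without sites of high WCE, median NPC H3K27ac was 20.4, 12.3, 33.5 and 20.9 RPM and the centre to flank ratio 5.82, 5.86, 5.71 and 5.66. With only adjacent bins joined that ratio was 5.34, with the centre taken as 100 bp on either side 6.07, and with repeated H3K27ac reads kept 6.53. The stricter p gave a median ES level of 11.4 RPM. Windows of 1 kb gave 17.3 RPM in NPCs and 5.91 RPM in ES cells, and windows of 4 kb gave 24.8 RPM in NPCs. The centre to shoulder ratio at strong sites was 0.576 with Rfx1 reads moved 60 bp, 0.467 with repeated H3K27ac reads kept, 0.474 and 0.668 with H3K27ac reads moved 60 bp or not at all, and 0.499 without sites of high WCE. Sites lower in NPCs numbered 1930 with library size scaling, 234 with limma-voom and 423 without sites of high WCE, and with at least 1 read in 1 library limma called 0 higher and 0 lower, with 2159 and 696 at an unadjusted p under 0.05. Library size scaling gave a median log2 difference of 1.07. Leaving out either ES library gave ratios of 2.22 to 3.35, ES medians of 6.62 to 10.0 RPM and median log2 differences of 1.94 to 2.62. The causes were not tested. With 694055 distinct Rfx1 reads, sites weaker than 4 reads in a bin were not detectable at this depth.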

Other observations

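Regions of H3K4me3 in ES cells differed in their NPC acetylation by whether they held an Rfx1 site, a comparison chosen after seeing the data and without a test. Regions with a site of 80 RPM and above (785) had a median NPC H3K27ac of 41.4 RPM within 1 kb, against 14.9 ± 4.07 RPM in ES cells (SD of the 2 library medians), a ratio of 2.79. Those with a site of 20 to 80 RPM (1440) had 48.6 RPM in NPCs and 18.7 RPM in ES cells, and those with a site under 20 RPM (6473) had 39.2 RPM in NPCs and 14.6 RPM in ES cells. The 5781 regions without a site had 3.82 RPM in NPCs and 9.86 RPM in ES cells, a ratio of 0.387. All these regions were called from the repetitive ES H3K4me3 library, with 2.32 M distinct reads.

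The classes with a site resembled each other whatever its strength. When the regions were restricted to those with 12.9 to 23.7 RPM of ES H3K27ac, the ratio of NPC to ES medians was 2.49 with a site of 80 RPM and above, 2.64 at 20 to 80 RPM and 2.55 under 20 RPM, and 1.03 without a site. Regions without a site were also narrower, with a median width of 1000 bp against 1500 bp, and had less ES H3K4me3, 18.5 RPM against 33.6 to 37.1 RPM. The part of these differences, and of the wider excess of Rfx1 reads in acetylated chromatin, in the ratio was not tested.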
